A study of Mus musculus with 14 samples.

Results

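Thymus RNA of mice given 17β-estradiol was compared with that of mice fed genistein, both taken on day 2 of treatment. The comparison holds the 2 estradiol arrays and the 2 genistein arrays of that day, 4 of the 14 Affymetrix arrays of the series, chosen by the treatment and day in their titles. All mice were female C57BL/6, an inbred strain, ovariectomised at 26 days of age, kept on a phytoestrogen-free diet and treated from 30 days of age. Estradiol was injected under the skin daily, 125 ng in 0.02 ml of corn oil, and genistein was mixed into the diet at 1500 ppm. Each group had 6 mice, and each array carried RNA pooled from 3 of them, so that the labels call the 2 pools of a group independent replicates. The estradiol and genistein groups of days 3 and 6 were 8 arrays handled in the same way. They were used to choose probe sets bright enough to test, for the estimate of spread and for the same difference on other days. The untreated arrays of day 0 were not used. Dose, route, oil injection and handling differed together with the compound, and their parts cannot be told apart.

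Estradiol is the main ovarian estrogen and acts through nuclear receptors that bind response elements in DNA. Genistein is a soy isoflavone that binds the same receptors and also inhibits tyrosine kinases. In the thymus, the organ in which T cells mature, estrogens are known to shrink the cortex and to lower the number of CD4+ CD8+ thymocytes, and the organ is surrounded by fat.

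The defining markers of thymus were bright on all 4 arrays. Signals of Rag1, which cuts antigen receptor genes in developing T cells, were 2962 and 2087 with estradiol and 2403 and 2226 with genistein, always given here as replicates 1 and 2 and after all arrays had been brought to one trimmed mean. The log2 difference of Rag1 was 0.10, with a 95% interval from -0.26 to 0.46. Those of Prss16, a protease of cortical epithelium, were 3016 and 2916 against 2202 and 2238. Among markers of tissue beside the thymus, Cr2, Madcam1, Acta1, Hba-a1 and the thyroid gene Tg were too dim to be tested, though Tg read 54.7 and 31.0 against 10.2 and 9.0. The parathyroid hormone gene Pth read 122 and 81.8 against 94.1 and 59.8, the muscle gene Ckm 63.1 and 52.2 against 53.5 and 33.9, and the red cell gene Alas2 116 and 183 against 86.9 and 176. All 3 were higher on average with estradiol (log2 differences of 0.35, 0.32 and 0.20) and overlapped between groups. In contrast, the fat markers Adipoq and Ucp1 and the neutrophil markers S100a8 and Ngp were higher on both estradiol arrays and are described further on. Estradiol replicate 2 stood apart in the deposited file, with a 2%-trimmed mean of 223.4 against 150.04 on the other 3 arrays. Estradiol replicate 1 stood apart in the ratio of the 3' to the 5' Gapdh probe sets, a measure of RNA length, at 1.27 against 0.867 to 0.929 on the other 3. Over the 13575 probe sets bright enough to be tested, the arrays of different treatments correlated as closely (r from 0.949 to 0.966) as the arrays of one treatment (0.956 and 0.960).

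At day 2, 8 probe sets were higher with estradiol than with genistein and 0 were lower. They were called at a limma adjusted p under 0.05 and made up 0.0589% of those tested, against 0% in the other direction. At an unadjusted p under 0.05 there were 642 higher and 336 lower. Differences above 1 on the log2 scale were also one-sided, with 50 higher and 8 lower. Of the 8, 5 stand for single genes, the malic enzyme Me1, the cytokine receptor Lifr, and Retnla, Cbr2 and C77080. Another carries several symbols, and 2 carry none in the annotation used here. The plot of differences against mean signal shows calls among dim and among brighter probe sets.

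**Figure D1:**
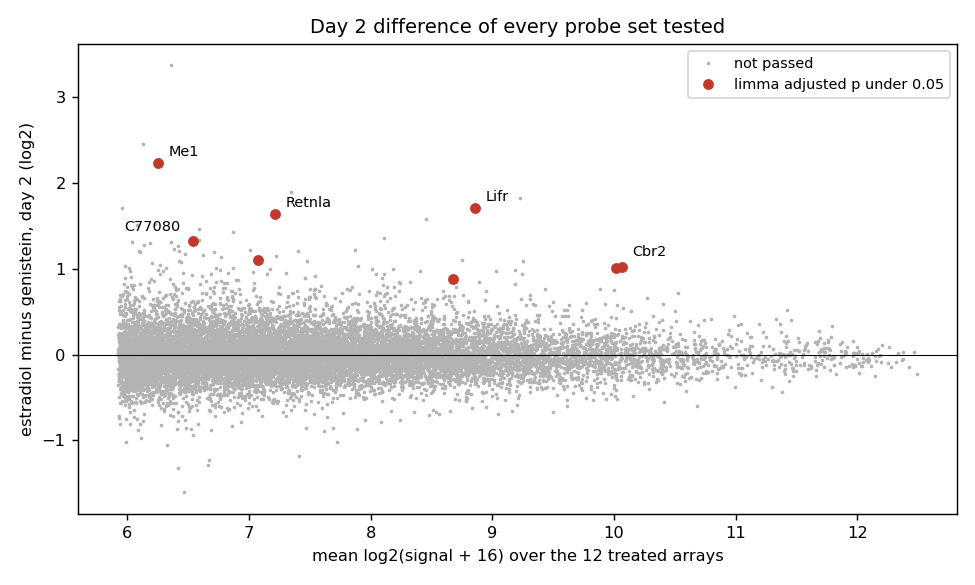
Difference between estradiol and genistein at day 2 (y axis, log2) against mean log2(signal + 16) over the 12 treated arrays (x axis) for each of the 13575 probe sets tested. Red points are the 8 probe sets that passed, all above 0, and grey points the rest, with 50 above 1 and 8 below -1 in all.

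Me1 encodes the cytosolic malic enzyme, which supplies NADPH for fatty acid synthesis. Its probe set 1416632_at read 142 and 116 with estradiol and 15.8 and 13.6 with genistein, so that the groups lay far apart and both genistein signals were below the pseudocount of 16. The probe set was bright enough to be tested only through the group where it is high, since its 6 genistein arrays of all days read 13.6 to 50.2 and its 6 estradiol arrays 84.6 to 144. The log2 difference was 2.23 ± 0.25 (limma SE, adjusted p = 0.0105), on the scale of log2(signal + 16), which understates the change of dim genes. With a pseudocount of 1 it was 3.04 and with 64 it was 1.29. A second and brighter Me1 probe set read 221 and 210.0 against 137 and 128, a difference of 0.64 that did not pass (adjusted p = 0.368). The probe sets thus gave the same order of the groups and different sizes.

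Lifr encodes the receptor chain for leukemia inhibitory factor. It read 681 and 684 with estradiol and 151 and 258 with genistein. The estradiol arrays were nearly equal and 3.34 times the genistein mean, while the genistein arrays differed from each other. The log2 difference was 1.71 ± 0.27 (limma SE, adjusted p = 0.0465).

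Retnla encodes a secreted resistin-like protein that marks alternatively activated macrophages. It read 328 and 245 with estradiol and 76.2 and 83.8 with genistein, a ratio of means of 3.58. The log2 difference was 1.64 ± 0.21 (limma SE, adjusted p = 0.0157). Cbr2, a carbonyl reductase also found in resident macrophages, read 1302 and 1215 against 688 and 541, and rose by 1.02 ± 0.14 on the log2 scale (adjusted p = 0.0208). In both genes each estradiol array lay above each genistein array by more than the distance within a group.

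C77080, a gene for which no role is stated here, read 123 and 86.8 against 31.7 and 32.0, with a log2 difference of 1.32 ± 0.19 (limma adjusted p = 0.0252). The probe set with several symbols, 1427455_x_at, read 1405 and 1404 against 611 and 776 (1.01, adjusted p = 0.0157). The probe sets without a symbol, 1422411_s_at and 1423954_at, differed by 1.11 and 0.88 (adjusted p = 0.0465 for both). The groups did not overlap in any of the 8.

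**Figure D2:**
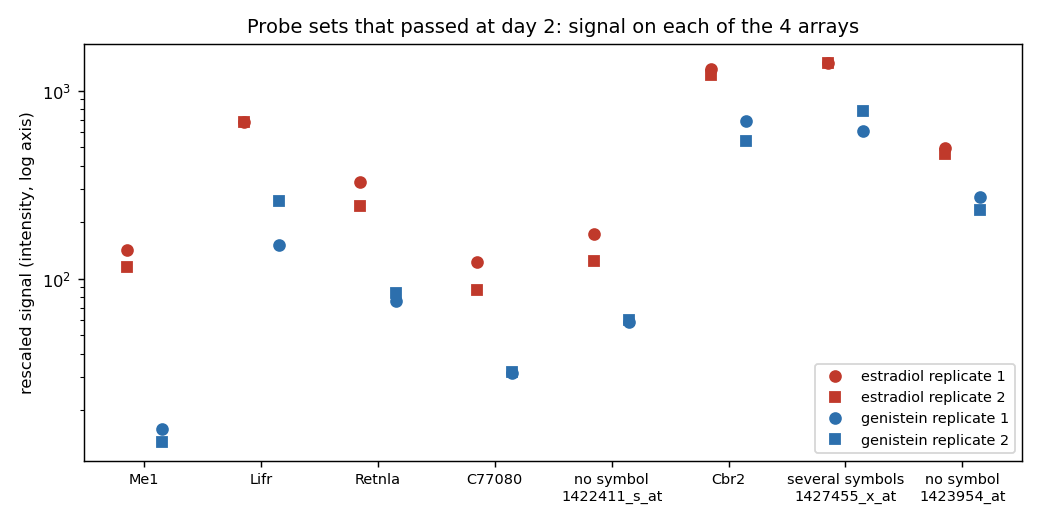
Rescaled signal (y axis, log scale) of the 8 probe sets that passed at day 2 on each of the 4 arrays. Circles are replicate 1, squares replicate 2, red estradiol and blue genistein. The estradiol points lie above the genistein points in every probe set, with the widest gap in Me1 (142 and 116 against 15.8 and 13.6).

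Because estrogen receptors bind DNA, the start regions of the called genes are shown, from 250 bases before to 50 after the transcription start, read from RefSeq on build GRCm38.p6. For each of the 4 genes printed the start farthest upstream was taken. Capitals mark 1 arm of the estrogen response element, GGTCA, on either strand.
Me1 (chr9:86695865-86696164, minus strand): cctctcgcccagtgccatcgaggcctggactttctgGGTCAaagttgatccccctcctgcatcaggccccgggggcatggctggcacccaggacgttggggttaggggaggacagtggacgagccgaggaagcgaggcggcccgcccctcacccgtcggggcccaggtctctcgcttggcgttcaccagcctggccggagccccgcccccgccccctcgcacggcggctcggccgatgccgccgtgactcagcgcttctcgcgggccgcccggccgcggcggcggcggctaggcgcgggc
Lifr (chr15:7129322-7129621, plus strand): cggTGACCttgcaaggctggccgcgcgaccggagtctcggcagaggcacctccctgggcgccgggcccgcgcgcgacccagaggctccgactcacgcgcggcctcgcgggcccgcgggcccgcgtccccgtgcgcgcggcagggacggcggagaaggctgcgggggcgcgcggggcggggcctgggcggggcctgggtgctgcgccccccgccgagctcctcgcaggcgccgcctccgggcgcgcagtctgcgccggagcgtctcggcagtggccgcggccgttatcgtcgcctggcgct
Retnla (chr16:48842359-48842658, plus strand): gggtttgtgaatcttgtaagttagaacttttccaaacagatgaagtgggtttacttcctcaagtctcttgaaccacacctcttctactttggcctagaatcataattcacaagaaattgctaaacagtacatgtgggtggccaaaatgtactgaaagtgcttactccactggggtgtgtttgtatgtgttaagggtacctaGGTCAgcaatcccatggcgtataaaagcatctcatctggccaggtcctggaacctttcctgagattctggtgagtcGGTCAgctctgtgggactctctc
Cbr2 (chr11:120731972-120732271, minus strand): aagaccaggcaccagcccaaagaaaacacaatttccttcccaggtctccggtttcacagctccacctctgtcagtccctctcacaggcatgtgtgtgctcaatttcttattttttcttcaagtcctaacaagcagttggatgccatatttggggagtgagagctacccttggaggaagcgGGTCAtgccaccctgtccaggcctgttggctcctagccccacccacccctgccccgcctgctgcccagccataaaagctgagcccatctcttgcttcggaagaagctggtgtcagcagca
That arm stood in these 4 and not in the start region of C77080 taken by the same rule. Of all 32851 start regions of this length, 40.5% held it. The full element, 2 inverted copies of GGTCA facing each other across NNN, was in 0 of the 10 start regions listed for the 5 genes and in 0.07% of all. The glucocorticoid response element, AGAACA and its reverse complement across NNN, was in 0 of the 10 and in 0.00913% of all, and the sterol regulatory element TCACNCCAC in 0 of the 10 and in 1.24% of all. The GC box GGGCGG was in the start regions printed for Me1 and Lifr, and in 35.7% of all. All motifs were searched on both strands, and no motif contains another except the full element, which holds GGTCA. A match is a description of the letters in this window.

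The count of calls rested on single arrays. In each of the 8 both estradiol arrays lay above both genistein arrays, so leaving out 1 array could not turn the direction. Without estradiol replicate 1, 0 of the 8 passed and 1 other probe set passed as lower. Without estradiol replicate 2, 15 were higher and 14 lower, with 6 of the 8 among them. Without genistein replicate 1, 2 passed, 1 of them among the 8, and without genistein replicate 2, 16 were higher and 1 lower, with 4 of the 8 among them. Arrays of other days do not enter the day 2 difference itself. They enter through the estimate of spread and through the choice of probe sets bright enough to be tested. Leaving out either estradiol array of day 3 left 1 call, either of day 6 left 2, and either genistein array of day 6 gave 13 higher and 1 lower. The 5 named genes kept a higher estradiol value under every alternative that tested them, which was fixed in advance for the runs that left out 1 array. Me1 passed in 23 of 26 alternatives, Retnla in 20 of 27, Cbr2 in 18 of 27, C77080 in 14 of 26 and Lifr in 10 of 27.

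The genes next in order of p, with groups that did not overlap but no call, were S100a8, Lpl, Pglyrp1, Plvap, Cd7 and Fabp4. S100a8, a calcium-binding protein of neutrophils, read 643 and 398 against 158.5 and 157 (log2 difference 1.59 ± 0.26, limma adjusted p = 0.0597). Pglyrp1, a bactericidal protein of neutrophil granules, read 105 and 63.2 against 17.7 and 30.6 (1.30, adjusted p = 0.0734). Both were higher on estradiol replicate 1 than on replicate 2. Lpl, the lipase that frees fatty acids from lipoproteins, read 706 and 497 against 266 and 268 (1.10, adjusted p = 0.0734). Fabp4, the fatty acid carrier of adipocytes, read 1139 and 728 against 389.9 and 448 (1.10, adjusted p = 0.10). Plvap, which builds the diaphragms of fenestrated endothelium, read 122 and 103 against 42.7 and 49.2 (1.05, adjusted p = 0.0734). The other 8 tested genes of the endothelium list differed by -0.28 to 0.11, and Flt1, too dim to be tested, read 31.4 and 24.7 against 73.2 and 60.6. Cd7, a surface protein of T and natural killer cells, read 94.0 and 118 against 6.3 and 5.9, a log2 difference of 2.46 ± 0.45 that missed the threshold (adjusted p = 0.10). It was 3.90 with a pseudocount of 1 and 1.27 with 64, since both genistein signals lay below the pseudocount. Like the called Me1 probe set, Cd7 was bright enough to be tested only through the estradiol arrays. Without estradiol replicate 2, S100a8, Lpl, Pglyrp1 and Fabp4 passed, each at an adjusted p of 0.0293.

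No probe set passed as lower with estradiol, and the smallest adjusted p in that direction was 0.120. The 10 genes named for this direction are therefore given by their values. Gtpbp6 read 35.8 and 24.6 with estradiol against 113 and 86.5 with genistein (log2 difference -1.33, limma adjusted p = 0.169). Fdps, the enzyme that makes farnesyl diphosphate on the way to cholesterol, read 211 and 186 against 333 and 359 (-0.76, adjusted p = 0.170). Pik3r2, a regulatory subunit of phosphoinositide 3-kinase, read 21.1 and 66.0 against 129.7 and 99.3 (-1.23, adjusted p = 0.245), with the estradiol arrays far apart. It passed without estradiol replicate 2 (-1.80, adjusted p = 0.0293). Ube2c, which hands ubiquitin to the anaphase-promoting complex, read 1001 and 988 against 1438 and 1353 (-0.48, adjusted p = 0.318). Cenpn, a kinetochore protein, read 332 and 386 against 577 and 542 (-0.62, adjusted p = 0.296). The others were Oscar, Gapdhs, Skp1, Tab1 and Ccsap, with log2 differences from -0.82 to -0.52 and adjusted p from 0.245 to 0.296. A further tested probe set of Skp1 differed by -0.05 and overlapped between groups. Those of Cenpn and Oscar differed by -0.34 and -0.21 without overlap.

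Genes were then grouped into lists of cell types and pathways, each gene by its brightest probe set. The lists were written with earlier results of these data known, so a list's direction is not independent evidence. Over all 8217 genes the median difference was -0.003, 4050 were positive, and both estradiol arrays lay above both genistein arrays in 16.6% and below them in 15.1%. Of the 39 lists with at least 5 tested members, 32 had a positive and 7 a negative median. Only the macrophage list held calls, Retnla and Cbr2, and these 2 had been placed on it because of earlier results. The called probe set of Me1 is not that gene's brightest and is not counted here. No other list member passed in either direction, so the values below are levels and differences without a call. In a bulk sample, fewer cells of a type and less RNA per cell cannot be told apart.

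**Figure D3:**
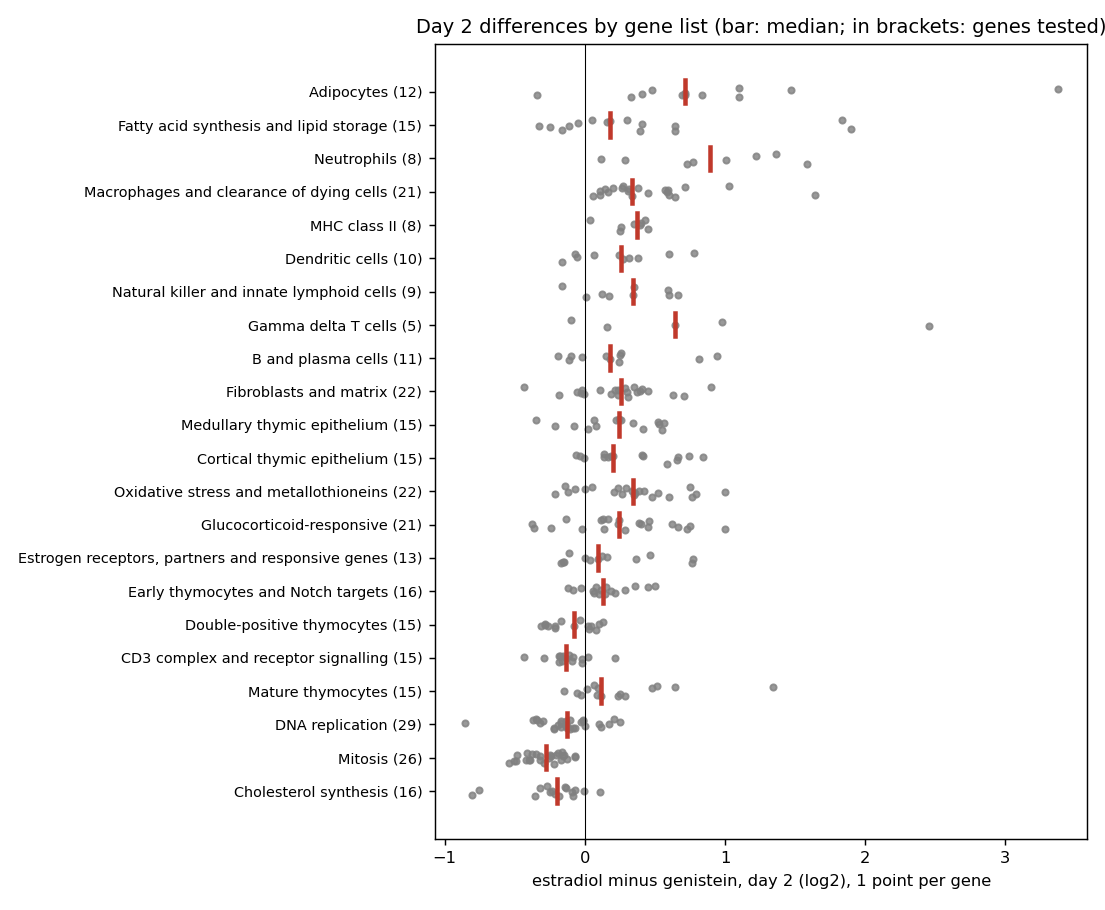
Difference between estradiol and genistein at day 2 (x axis, log2) for the tested genes of 22 lists (y axis, number of genes tested in brackets). Grey points are genes and red bars medians. All tested points of the neutrophil, macrophage and MHC class II lists lie above 0 and all 26 of mitosis below it.

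The fat list held the gene with the largest difference of any list member, Ucp1, while the neutrophil list had the larger median. Of the fat list's 12 tested members 11 were positive, with a median of 0.72, and the same 11 lay higher on both estradiol arrays. The remaining member, Retn, lay lower on both (log2 difference -0.34). Ucp1, the uncoupling protein of brown fat, read 544 and 190.5 against 11.5 and 23.1 (log2 difference 3.37 ± 0.72, limma adjusted p = 0.170). It was bright enough to be tested only through the estradiol arrays, since its genistein arrays of all days lay below the limit on average. At day 6 the Ucp1 difference was -0.64, with groups that overlapped. Adipoq, the adipocyte hormone adiponectin, read 182 and 155 against 47.7 and 53.4 (1.47, adjusted p = 0.194). A further 7 members were too dim on average to be tested, and they were divided. Cidea, a lipid droplet protein of brown fat, read 109 and 76.1 against 11.9 and 5.2. Pck1 and, narrowly, Cidec also read higher on both estradiol arrays. Aqp7 read lower on both, and Lep, Pparg and Acvr1c overlapped between groups. The summed signal of the list was 4362 and 3375 with estradiol and 1963 and 1920.0 with genistein. Its part in the differences of Me1, Lpl, Fabp4 and other genes that adipocytes express was not tested.

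Fatty acid synthesis and lipid storage was divided. Of 15 tested members 10 were positive, with a median of 0.18. Thrsp, a nuclear protein of lipogenic tissue, read 520 and 209 against 85.1 and 69.4 (log2 difference 1.90). Scd1, which desaturates stearate, read 1053 and 1020.0 against 349 and 224 (1.83, limma adjusted p = 0.10). Fasn, the fatty acid synthase, read 627 and 587.5 against 408 and 360.5 (0.64). Srebf1, the factor that drives these genes, read lower with estradiol, at 315 and 445.5 against 471 and 476 (-0.32).

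The cholesterol list read the other way, with 15 of 16 tested members negative and a median of -0.20. That median became 0.03 with the values as deposited, a scaling that moved the median of all probe sets to 0.26. Measured from that shift it was -0.23. Beside Fdps, Cyp51, which removes a methyl group from lanosterol, read 17.7 and 47.4 against 74.8 and 55.9 (-0.81, limma adjusted p = 0.475). Sqle, the squalene epoxidase, read 161 and 167 against 194 and 202 (-0.25), and Fdft1, the squalene synthase, overlapped between groups. Both estradiol arrays lay below both genistein arrays in 6 of the 16.

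All 8 tested neutrophil genes were positive, with a median of 0.89. Ngp, a granule protein, read 430.0 and 343 against 153 and 127.5 (log2 difference 1.36, limma adjusted p = 0.10). S100a9, the partner of S100a8, read 343 and 244 against 95.1 and 139 (1.22, adjusted p = 0.128). Csf3r, the receptor for the granulocyte growth factor, read 78.2 and 58.2 against 21.1 and 30.4 (1.01). Mpo and Mmp9 differed least (0.28 and 0.12). The summed signal was 2119 and 1684 with estradiol and 819 and 889 with genistein, and the share of the difference that came from blood left in the tissue was not tested. Of the 6 red cell genes on the array 4 were too dim to be tested, Hba-a1 among them at 34.4 and 30.8 against 41.5 and 34.7. Alas2, which starts heme synthesis in red cells, read 116 and 183 against 86.9 and 176 (0.20), and the summed signal of the red cell list overlapped between groups, at 322 and 356 against 294 and 380.

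All 21 tested macrophage genes were positive, with a median of 0.33, and 16 lay higher on both estradiol arrays. After Retnla and Cbr2 came the iron exporter Slc40a1, with 293 and 270.2 against 183 and 149 (log2 difference 0.71, limma adjusted p = 0.170). Vcam1, the adhesion molecule, read 669.9 and 702 against 435 and 431 (0.64, adjusted p = 0.170). Adgre1, Fcgr1 and Cd14 differed least (0.06, 0.105 and 0.109), and Adgre1 and Cd14 overlapped between groups. All 8 tested MHC class II genes, which present antigen on macrophages, dendritic cells and epithelium, were positive as well, with a median of 0.37. H2-Ab1 read 856 and 748 against 581.5 and 584 (0.45), and Cd74, the invariant chain, read 3224 and 2974 against 2212 and 2474 (0.40). Dendritic cell genes had a median of 0.26 with 7 of 10 positive.

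Among lymphocytes outside the main thymocyte lineage, 4 of 5 tested γδ T cell genes and 8 of 9 tested natural killer genes were positive, with medians of 0.65 and 0.34. Cd7, tested only through its estradiol arrays, was among the 4. Trgv1, a variable gene of the γ receptor chain, read 373 and 501 against 197 and 226 (log2 difference 0.98, limma adjusted p = 0.202). Trgv4 read 766 and 888 against 450.5 and 603 (0.65), and variable genes of this family are alike enough for probe sets to share signal. Ccl5, a chemokine of cytotoxic cells, read 401 and 339 against 223 and 232 (0.66, adjusted p = 0.169). Of the B and plasma cell genes 7 of 11 were positive, with a median of 0.18. Iglv1, a light chain variable gene, read 120.2 and 113 against 44.5 and 62.7 (0.94, adjusted p = 0.174). Jchain, which joins secreted antibodies, read 342 and 266 against 151 and 179 (0.81, adjusted p = 0.187), whereas Ms4a1, the B cell surface protein CD20, overlapped between groups. The 4 negative members included the antibody gene Igha, which lay lower on both estradiol arrays, at 234 and 230.5 against 246 and 291 (-0.19).

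Epithelial and fibroblast lists had positive medians as well. Of 15 cortical epithelial genes tested 12 were positive (median 0.20), and 11 lay higher on both estradiol arrays. Enpep, a peptidase of cortical epithelium, read 317 and 299.9 against 141 and 192 (log2 difference 0.85, limma adjusted p = 0.170). Trp63, the factor that keeps epithelial stem cells, read 192 and 181 against 106 and 104 (0.74, adjusted p = 0.194). Foxn1, the factor that specifies thymic epithelium, overlapped between groups at 108 and 98.2 against 145 and 79.4. In the medulla 12 of 15 were positive (median 0.24), among them Aire, which drives display of tissue antigens, at 88.1 and 92.9 against 48.1 and 69.3 (0.53). The 3 negative members included Fezf2, which lay lower on both estradiol arrays, at 35.4 and 48.15 against 65.5 and 49.9 (-0.35). Of 22 fibroblast genes 16 were positive (median 0.26), led by Igfbp7 at 314 and 353 against 131 and 222 (0.90, adjusted p = 0.176) and Postn at 217 and 184 against 116 and 117 (0.70).

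Genes of dividing cells were lower with estradiol by small amounts, and none passed. All 26 mitosis genes tested were negative, with a median of -0.28, and 18 of them lay lower on both estradiol arrays. At an unadjusted p under 0.05 there were 11, against 2.19% of all genes in that direction. The median was 0.004 with the values as deposited, which is -0.25 from the shift of all probe sets under that scaling. Kif2c, a kinesin that shortens microtubules, read 232 and 191 against 281 and 352 (log2 difference -0.54, limma adjusted p = 0.483). Prc1, which bundles spindle fibres, read 346 and 516.5 against 562 and 658 (-0.51). In the DNA replication list 24 of 29 were negative (median -0.13, or 0.15 with the values as deposited). Cdc6, which loads the replicative helicase, read 168 and 126 against 298 and 258 (-0.86, adjusted p = 0.459), and Mcm2 overlapped.

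The lists of main thymocyte genes had small medians. Double-positive thymocyte genes had a median of -0.08 with 6 of 15 positive, and the genes of the CD3 complex and receptor signalling one of -0.13 with 2 of 15 positive. Both medians were above 0 with the values as deposited, at 0.20 and 0.14. Cd8a read 1583 and 1827 against 2018 and 2128, a log2 difference of -0.28 with a 95% interval from -0.55 to -0.02 (limma adjusted p = 0.666). A second tested Cd8a probe set read 1395 and 1091 against 1247 and 1509, with overlap (-0.15, interval from -0.456 to 0.155). Cd4 read 713 and 1091 against 757 and 922, with an interval from -0.50 to 0.66, and its sign turned under 4 of 27 alternatives. A second tested Cd4 probe set differed by -0.42 and overlapped between groups. Early thymocyte genes had a median of 0.13 with 13 of 16 positive, led by Il2ra, a chain of the interleukin receptor on early thymocytes, at 92.1 and 108 against 68.7 and 63.4. Mature thymocyte genes had a median of 0.11 with 12 of 15 positive, and 6 lay higher on both estradiol arrays. Zbtb7b differed most, at 121 and 71.9 against 52.6 and 11.5 (1.34, limma adjusted p = 0.448).

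Direct estrogen targets gave little to compare. The receptors Esr1 and Esr2 and the target Pgr fell below the brightness limit, reading 7.46 to 30.0 on the 4 arrays. Of 32 symbols on the list of receptors, partners and responsive genes, 25 were on the array and 13 were tested. Of these 9 were positive, with a median of 0.10, and none passed. Ltf, lactoferrin, is also a neutrophil gene and read 151 and 142 against 66.2 and 94.0 (log2 difference 0.77, limma adjusted p = 0.186). Cyp1b1, which hydroxylates estradiol, read 120 and 124 against 55.1 and 76.4 (0.76, adjusted p = 0.282). Igf1, a growth factor induced by estrogen in the uterus, read 192 and 183 against 119 and 146 (0.46).

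Stress-responsive genes were mostly above 0. In the list of oxidative stress genes and metallothioneins 18 of 22 were positive (median 0.34), and in the list of glucocorticoid-responsive genes 16 of 21 (median 0.25). The 2 lists share Mt1 and Mt2, metal-binding proteins induced by both. Mt1 read 290 and 346 against 183 and 124 (log2 difference 1.00, limma adjusted p = 0.349) and Mt2 read 350 and 228.5 against 158 and 166 (0.75). Klf9, a factor induced by glucocorticoids, read 252 and 255 against 157.5 and 151 (0.66, adjusted p = 0.170). Slc2a4, the insulin-responsive glucose transporter of fat and muscle, read 82.9 and 94.5 against 64.3 and 70.6 (0.33, adjusted p = 0.747). Ribosomal, oxidative phosphorylation and proteasome genes had medians of -0.01, 0.02 and 0.02, with signs that turned under other settings.

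The same difference was measured on 8 other arrays at days 3 and 6. All 8 probe sets called at day 2 were also higher with estradiol on average on both days. The groups did not overlap in 7 of them at day 3 and in all 8 at day 6. The Me1 probe set was bright enough to be tested only through its estradiol arrays, those of days 3 and 6 included. Its direction on these days is therefore not independent of that choice. Of all genes, 20.1% at day 3 and 23.4% at day 6 had both estradiol arrays above both genistein arrays. Of all probe sets tested, 51.9% and 49.7% were higher with estradiol on those days. At day 3, 0 of the 8 passed, although 4 had an unadjusted p under 0.05, and limma called 1 of all probe sets as higher (0.00737%) and 0 as lower (0%). At day 6, 3 passed, Lifr, C77080 and 1423954_at, where 0.295% of all probe sets were called as higher and 0.0368% as lower. Lifr read 657 and 480.0 against 591.5 and 341 at day 3 and 794 and 817 against 248 and 325 at day 6, so that the groups overlapped at day 3 alone (log2 difference 0.31, adjusted p = 0.835). The difference at day 6 was 1.45 (adjusted p = 0.0461). Retnla differed by 0.60 and 0.89 and Me1 by 1.14 and 1.16 on those days, and Cbr2 by 0.27 and 0.56, none of which passed. The day 2 difference was the larger one in all 8 against day 3 and in 7 against day 6. The probe sets were chosen as extreme at day 2, so that smaller values on other days carry no weight as a comparison.

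**Figure D4:**
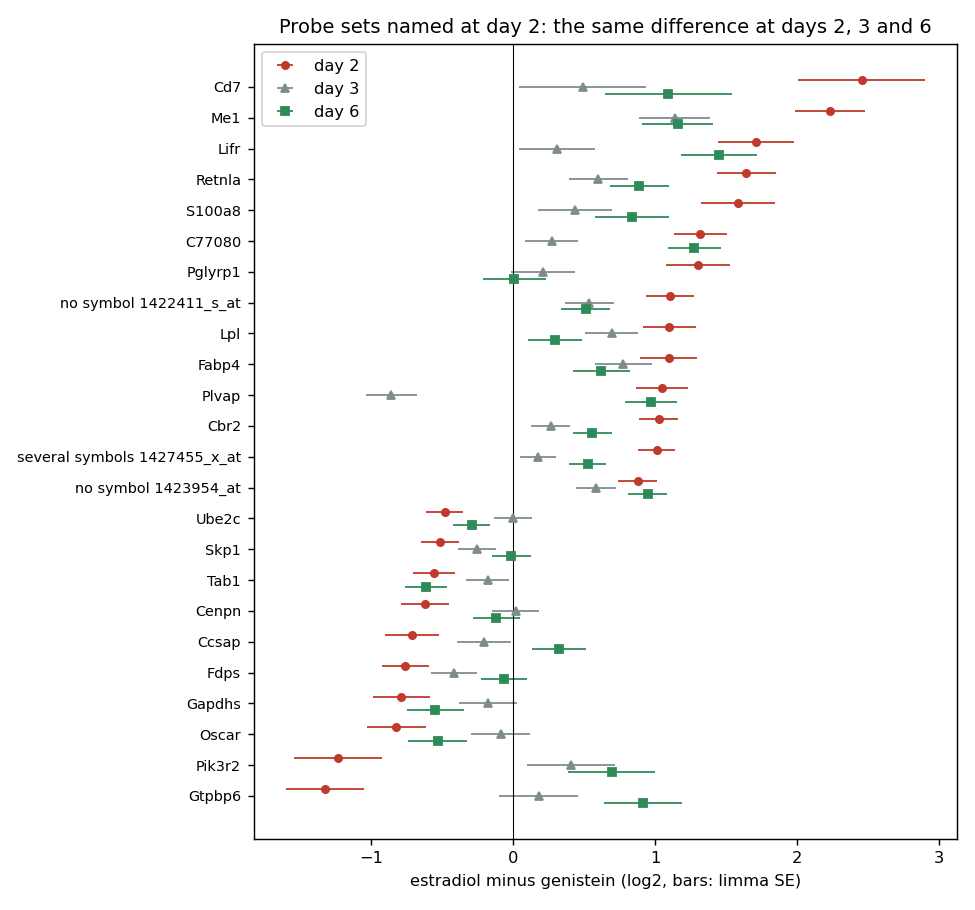
Difference between estradiol and genistein (x axis, log2) at day 2 (red circles), day 3 (grey triangles) and day 6 (green squares) for the 24 probe sets named at day 2 (y axis), with limma SE as bars. The called probe sets lie above 0 on all days. Plvap is above 0 at days 2 and 6 and below it at day 3, and Gtpbp6 and Pik3r2 are below 0 at day 2 and above it at days 3 and 6.

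Whether a difference was particular to day 2 was tested directly. The treatment difference of day 2 differed from that of day 3 in 0 probe sets and from that of day 6 in 0 (0% each, limma adjusted p under 0.05). At an unadjusted p under 0.05 there were 655 and 1022 of the 13575 tested. Such counts include probe sets that reach this p without any difference between days. Plvap came closest. It was higher with estradiol at day 2 (122 and 103 against 42.7 and 49.2), lower at day 3 (30.4 and 27.5 against 64.4 and 66.6) and higher at day 6 (89.0 and 118 against 43.4 and 45.5), where it passed (log2 difference 0.97, adjusted p = 0.0461). The change from day 2 to day 3 was 1.91 ± 0.26 on the log2 scale (adjusted p = 0.0781). Ctss, a protease of antigen-presenting cells, followed with 951 and 931 against 619 and 685 at day 2 and 587 and 528 against 1025 and 853.5 at day 3 (adjusted p = 0.152). Both estradiol arrays of day 3 had been deposited at another scale, and scale and treatment cannot be told apart at that day. Gid4, Gm6958 and H1f2 followed, with adjusted p from 0.649 to 0.667. Between days 2 and 6 the smallest adjusted p was 0.578, and the 5 genes with the smallest unadjusted p were Gtpbp6, Gm6958, Tmem266, Myo18a and Uck2. Among the lists, the fat median went from 0.72 at day 2 to 0.53 at day 3 and 0.29 at day 6, and the mitosis median from -0.28 to -0.15 and -0.07. Cortical epithelium had 0.20, 0.26 and 0.52, with 3 of 15 members called as higher at day 6, against 23 of all 8217 genes. The γδ T cell, fibroblast, endothelium and lysosomal protease lists each held 1 member called as higher at day 6. The B and plasma cell list held 1 higher and 1 lower. The medians over days were not tested.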

How the data were processed

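Deposited values are intensity signals of MAS5 version 5.0, per the submitters' processing notes, for 22690 probe sets. Detection calls were not used here. The deposited intensity had a 2%-trimmed mean of 150.04 on 11 arrays and another one on 3, for a reason not given in the sources used here, and each array was multiplied to 150.04. After removal of 64 control probe sets, log2(signal + 16) was taken and the lowest 40% by mean over the 12 treated arrays were left out, which left 13575 probe sets.

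limma 3.58.1 in R 4.3.3 fitted 6 group means to 12 arrays (6 residual degrees of freedom, 12.6 after eBayes with an intensity trend), with Benjamini-Hochberg adjustment over all probe sets tested. The arrays of days 3 and 6 entered to share the estimate of spread. They also counted in the mean signal used to leave out dim probe sets and to pick each gene's brightest one. Precision is limited by the number of arrays. The fit was tested on simulated data. P-values measure the spread between pools of mice treated in 1 study.

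The annotation gives 1 gene symbol to 20393 probe sets, more than 1 to 691 and no symbol to 1606. Only probe sets of the first kind were named. Named were up to 10 rises and 10 falls, called first and then by p among genes whose arrays did not overlap, the 5 smallest p of each test between days, fixed genes of interest, and up to 4 members a list by size of difference. Members of lists named outside that limit (Srebf1, Cidea, Mpo, Mmp9, Mcm2 and Foxn1 among them) were chosen after their values were seen. The members and lists were chosen with earlier results of these data known. Alternatives are in the closing section. Sequences came from RefSeq. Plots used matplotlib 3.10.9 (python 3.11.15).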

Additional observations from a re-analysis of the deposited data

How the results depend on the processing

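The count of probe sets that differed at day 2 was 8 in the fit described, and 27 alternatives were run. It was 4 with a pseudocount of 64, 3 without a filter, 5 with quantile normalization, 5 with centring on medians, 3 with the 4 arrays of day 2 alone, 29 with the deposited scale as a term and 0 without the 3 arrays at another scale (1312 at an unadjusted p under 0.05). With the values as deposited it was 45, all higher with estradiol, and the median of all probe sets moved to 0.26. The deposited scale as a term is set by estradiol replicate 2 of day 2 alone. Both estradiol arrays of day 3 were at another scale, so their group mean absorbs the term. It thus takes that day 2 array out of the difference, as leaving it out does, and the calls were no longer one-sided. These runs are not separate from each other, though both count among the 27 alternatives. Leaving out 1 array at a time gave 1 to 29. In the remaining settings, a pseudocount of 1, the lowest 60% left out, eBayes without a trend, all 14 arrays, probe sets ending in _x_at or _s_at left out and the Gapdh ratio as a covariate, the count was 6 to 11.

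The count for day 2 against day 3 was 0, and became 6 with the values as deposited and 1 with eBayes without a trend, with 0 to 1 when 1 array was left out. The count for day 2 against day 6 was 0, and became 1 with the deposited scale as a term and 1 without the 3 arrays at another scale, with 0 to 1 when 1 array was left out. The 4 arrays of day 2 alone allow no test between days, and without the 3 arrays at another scale day 3 has no estradiol array. Replicate numbers did not pair the samples, since deviations of same-numbered arrays correlated from -0.257 to 0.353 over the 15 pairs of groups, with 5 above 0.1. With the replicate block the day 2 count was 6, with 5 of the 8 among them, and both tests between days gave 0. For single named probe sets 28 results gained a call and 89 lost one, while 831 kept their call and direction, and 7 that were not called before or after turned sign. Of the list medians 879 moved by less than the spread between arrays and 169 by more. Signals near 16 or below are set by the pseudocount, and dim genes are limited by it.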
